A study of Mus musculus with 2 samples.

Results

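The MS4A members described here are 7 mouse genes, Ms4a4b, Ms4a4c, Ms4a6b, Ms4a6c, Ms4a6d, Ms4a7 and Ms4a8a, found by symbol among the 27998 genes of a droplet single-cell RNA-seq study of tumor leukocytes. Leukocytes positive for CD45 came from Lewis lung carcinoma (LLC) tumors that C57/BL6 mice aged 10 weeks had carried for 14 days. The controls were mir-21flox/flox, and the mir-21flox/flox; lysmCre mice lose the microRNA miR-21 wherever the lysozyme M promoter drives Cre, chiefly in macrophages and granulocytes. Each genotype gave 1 library made with 10x Genomics 3′ chemistry from a pool of 3 mice, so there are 2 libraries, titled wt and cko, and all mice carry the floxed allele. The titles and the description of the cell source disagree on which of them is the knockout. The libraries are therefore named only by their titles, as labelled wt or labelled cko. Lyz2, the gene into which the Cre is inserted, was at 19432 CPM (counts per 1000000 UMIs) in monocytes and macrophages labelled wt and at 9153 labelled cko. A second description names a macrophage gate, but T and NK cells were present in both libraries. With 1 library per genotype no test across animals was possible. Intervals cover counting error only. Fewer expressing cells and less RNA per cell are not told apart, since the share of cells with a UMI also follows the level.

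MS4A proteins cross the membrane several times, and the best known of them is the B cell antigen CD20, the product of Ms4a1. The family sits as a cluster of tandem copies, and several copies exist in mouse that have no single human counterpart. Ms4a4b is known as a surface protein of T cells that restrains their proliferation, Ms4a7 is used as a macrophage marker, and Ms4a8a has been described in alternatively activated macrophages.

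All 7 members lay within 537 kb of mouse chromosome 19 (GRCm38, GENCODE gene spans). In order along the chromosome they were Ms4a8a (ENSMUSG00000024730, chr19:11067471-11081102, minus strand), Ms4a7 (ENSMUSG00000024672, chr19:11321039-11336146, minus), Ms4a4c (ENSMUSG00000024675, chr19:11404770-11427246, plus), Ms4a4b (ENSMUSG00000056290, chr19:11443553-11467055, plus), Ms4a6c (ENSMUSG00000079419, chr19:11469366-11482192, plus), Ms4a6b (ENSMUSG00000024677, chr19:11516512-11531256, plus) and Ms4a6d (ENSMUSG00000024679, chr19:11586604-11604849, minus). The neighbours Ms4a4c and Ms4a4b shared 91.7% of 678 aligned coding bases, and Ms4a6c and Ms4a6b shared 86.4% of 641. Ms4a6d shared 81.9% with Ms4a6b and 79.2% with Ms4a6c. The other pairs shared 59.4% to 64.7%.

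The similarity includes bases before RefSeq starts of these genes. The stretches printed here, from RefSeq (GRCm38.p6, plus strand), are shown because Ms4a4b was higher in T and NK cells and Ms4a4c in monocytes and macrophages, and because CD8 T cells held Ms4a6b well above, and Ms4a6c near, the level that free RNA would bring. Each pair is the best local alignment of the 250 bases before the RefSeq starts, ended before the first annotated exon base. The Ms4a4c and Ms4a6b stretches precede an inner start and lie within the longest span of their gene. Capitals mark bases that differ from the partner or have none. The Ms4a4b and Ms4a4c stretches, chr19:11443422-11443552 and chr19:11407528-11407659, were identical at 88.5% of 131 aligned bases. The Ms4a6b and Ms4a6c stretches, chr19:11518311-11518452 and chr19:11469193-11469330, were identical at 83.1% of 136.
Ms4a4b: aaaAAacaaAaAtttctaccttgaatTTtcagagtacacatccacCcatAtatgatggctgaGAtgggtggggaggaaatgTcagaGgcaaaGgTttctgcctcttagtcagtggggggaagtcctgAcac
Ms4a4c: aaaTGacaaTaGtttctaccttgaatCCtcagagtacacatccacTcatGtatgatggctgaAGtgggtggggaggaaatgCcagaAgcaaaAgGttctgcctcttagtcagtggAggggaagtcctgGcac
Ms4a6b: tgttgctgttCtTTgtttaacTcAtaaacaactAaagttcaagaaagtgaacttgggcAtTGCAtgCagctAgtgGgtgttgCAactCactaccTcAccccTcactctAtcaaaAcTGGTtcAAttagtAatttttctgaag
Ms4a6c: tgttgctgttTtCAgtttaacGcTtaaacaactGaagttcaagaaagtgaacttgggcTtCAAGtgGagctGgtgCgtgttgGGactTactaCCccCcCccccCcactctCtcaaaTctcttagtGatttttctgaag
RefSeq windows were at hand for 6 of the 7 members. On either strand, the letters GGAAGT, the core that ETS factors bind, occurred in the windows of 5 of these 6 (Ms4a4b, Ms4a4c, Ms4a6b, Ms4a6c and Ms4a7) and in 19.7% of all 32851 windows. A pair of GAAA separated by 2 bases, as in interferon response elements, occurred in 0 of the 6 and in 2.98% of all windows. TTC and GAA separated by 3 bases, as in STAT elements, occurred in 0 of the 6 and in 7.02% of all windows. Members were counted by gene over 7 windows, and the background by window, so the counts and shares are unlike measures. The printed pairs share much of their sequence, so the members are not independent of each other. A match is a description of letters only.

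Cells were assigned to classes by unique molecular identifiers (UMIs, counted molecules) of marker genes, with no MS4A gene used. The libraries labelled wt and cko held 2449 and 2718 cells with 24492486 and 27163485 UMIs, of which 2397 and 2645 cells were analysed, and they shared 5 cell barcodes. T cells carried Cd3 UMIs and were split by Cd8, NK cells carried Ncr1, Klrb1c or Klre1, and all classes of the monocyte/macrophage pool carried the receptor Csf1r. Within that pool, classical monocytes were Ly6c2-high and low in the complement genes C1qa, C1qb and C1qc, nonclassical monocytes carried Ace, transitional cells were high in both Ly6c2 and C1q, and C1q macrophages were Ly6c2-low. Genes outside the gates were at least 2-fold above the other cells in both libraries for 5 of 5 T cell genes, 5 of 5 NK genes, 5 of 5 neutrophil genes, 6 of 6 nonclassical genes and 4 of 5 classical genes. The macrophage gene Trem2 was only 1.26-fold and 1.13-fold higher in C1q macrophages than in the other cells. The T and NK pool held 208 and 231 cells in the libraries labelled wt and cko, and the monocyte/macrophage pool 1826 and 1952. A further 280 and 347 cells matched no gate. Levels are given in CPM, the UMIs of a gene per 1000000 UMIs summed over the cells of the class, with 95% Poisson intervals.

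**Figure D1:**
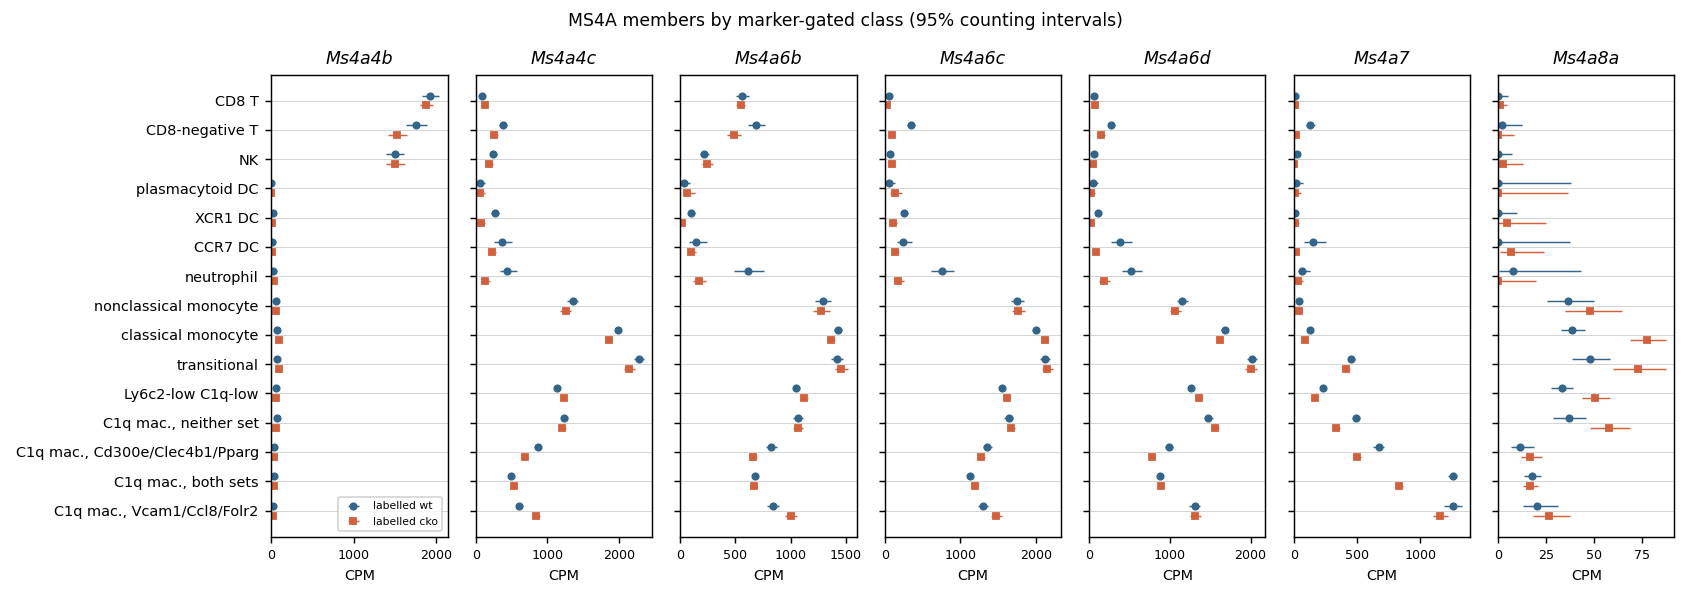
Level of each MS4A member (CPM, linear axis that differs between panels) in 15 marker-gated classes, with blue circles for the library labelled wt, orange squares for the library labelled cko and bars for 95% counting intervals. Ms4a4b sits above 1400 CPM in the T and NK classes and under 100 CPM elsewhere, Ms4a4c, Ms4a6b, Ms4a6c and Ms4a6d are highest in classical and transitional cells, and Ms4a7 is highest in C1q macrophages with Vcam1, Ccl8 or Folr2.

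Ms4a4b was higher in T and NK cells than in monocytes and macrophages, and the other 6 members were lower, though Ms4a6b and, in part, Ms4a4c were also read in lymphoid cells. In the library labelled wt Ms4a4b was read at 1762 CPM (1699 to 1826) in the T and NK pool and at 53.2 CPM (50.03 to 56.6) in the monocyte/macrophage pool, and in the library labelled cko at 1718 (1662 to 1775) and 53.0 CPM (49.8 to 56.2). The fold was 33.1 and 32.4. A gene was called here where it was at least 2-fold apart in the same direction in both libraries. Ms4a4b was the 1 member of 7 called higher in T and NK cells, a call made for 14.0% of 10912 genes. The other 6 were called lower in T and NK cells, a call made for 13.4% of genes. The median log2 ratio, T and NK pool over monocyte/macrophage pool, was -3.51 and -3.99 for the members and 0.18 and 0.18 for all genes in the libraries labelled wt and cko.

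Within lymphocytes Ms4a4b followed T cell and NK identity closely but not in every T cell. CD8 T cells held 1929.7 CPM (1828 to 2036) in 70 cells labelled wt and 1876 (1798 to 1957) in 108 labelled cko. NK cells held 1499 (1395 to 1609) in 57 cells and 1504 (1389.9 to 1625) in 50, below CD8 T cells in both libraries with intervals that did not overlap. After every cell was thinned to 3000 UMIs, 95.7% (88.0 to 99.1, Clopper-Pearson) of CD8 T cells labelled wt and 99.1% (94.9 to 100) labelled cko held an Ms4a4b UMI, against 16.7% (13.4 to 20.5) and 22.3% (18.4 to 26.6) of classical monocytes. The share in CD8-negative T cells was lower, 78.4% (67.3 to 87.1) and 80.0% (68.7 to 88.6).

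CD8-negative T cells with a UMI of Foxp3, the transcription factor of regulatory T cells, carried little Ms4a4b. In the library labelled wt the 11 Foxp3+ cells held 182 CPM (102 to 299.8) and the 63 Foxp3- cells 2107 (1962 to 2259.6). In the library labelled cko the 18 Foxp3+ cells held 292 CPM (212 to 391) and the 52 Foxp3- cells 2147 (1985 to 2319). The log2 ratio of Foxp3+ over Foxp3- was -3.54 (-4.38 to -2.80) and -2.88 (-3.36 to -2.44), so that the groups lay apart in both libraries. Ms4a6b differed less between them. Foxp3+ cells held 460.4 and 378 CPM of Ms4a6b and Foxp3- cells 733 and 535, a log2 ratio of -0.67 (-1.20 to -0.18) and -0.50 (-0.96 to -0.06). The Foxp3+ cells are few, and cells without a Foxp3 UMI can still be regulatory T cells at this depth.

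**Figure D2:**
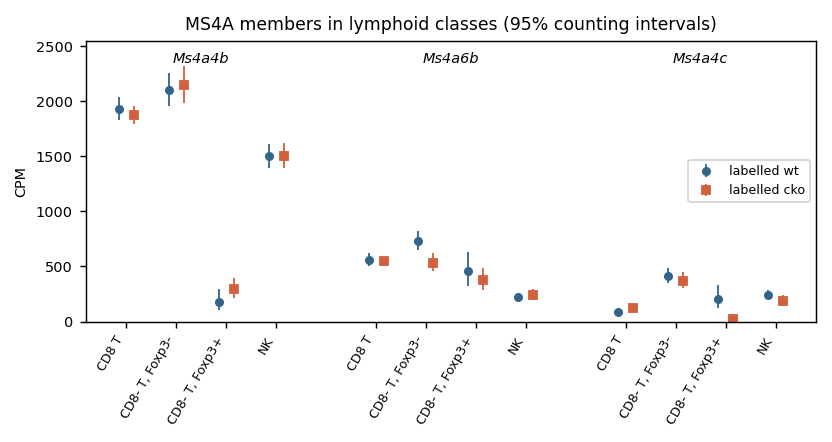
Level (CPM) of Ms4a4b, Ms4a6b and Ms4a4c in CD8 T cells, CD8-negative T cells without and with a Foxp3 UMI, and NK cells, with circles for the library labelled wt, squares for the library labelled cko and bars for 95% counting intervals. Ms4a4b is at 182 and 292 CPM in Foxp3+ cells and above 1400 CPM in the other classes, and Ms4a6b is lowest in NK cells.

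Ms4a6b was shared between T cells and the myeloid classes. CD8 T cells held 560.2 CPM (506 to 619) labelled wt and 546 (504 to 590.2) labelled cko, NK cells held 219 (181 to 264) and 242 (198 to 294), and classical monocytes held 1428 (1391 to 1466) and 1365 (1327 to 1404). CD8 T cells were thus 2.56-fold and 2.26-fold above NK cells. RNA released from broken cells enters every droplet, so the lymphoid level was set against the C1q carried by the same cells: if the C1q of CD8 T cells came with Ms4a6b in the ratio found in the monocyte/macrophage pool, Ms4a6b would stand at 26.2 and 27.2 CPM, and it was 21.4 and 20.1 times that. In NK cells it was 9.11 and 10.9 times. After thinning, 82.9% (72.0 to 90.8) and 86.1% (78.1 to 92.0) of CD8 T cells and 49.1% (35.6 to 62.7) and 48.0% (33.7 to 62.6) of NK cells held an Ms4a6b UMI.

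Its tandem copy Ms4a6c, by contrast, stood at the free RNA level in CD8 T cells. It was read at 52.1 CPM (36.5 to 72.1) and 35.3 CPM (25.3 to 47.8) there, and the C1q of those cells would bring 39.1 and 42.8 CPM. Ms4a7 in CD8 T cells was 11.6 and 13.8 CPM against 13.02 and 11.6 from the same calculation. Ms4a6d was at 57.9 (41.4 to 78.8) and 66.2 CPM (52.2 to 82.7), 1.77 and 1.94 times its calculated level. Ms4a8a had 0 UMIs in CD8 T cells labelled wt, which allows up to 4.34 CPM (3 counts), and 1 UMI labelled cko. Ms4a4c had the largest excess of these 5 in NK cells in both libraries, 244 CPM (204 to 291) and 190.4 CPM (151 to 237), or 8.60 and 7.56 times the calculated level. An Ms4a4c UMI was held by 33.3% and 32.0% of thinned NK cells, and 1 cell held 18.3% and 27.2% of these UMIs.

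CD8-negative T cells carried 429.8 CPM of C1qa labelled wt and 90.8 CPM labelled cko, and Ms4a4c, Ms4a6c and Ms4a6d were higher in them than in CD8 T cells. Ms4a6c was at 346 CPM labelled wt, where the C1q of these cells would bring 365, and at 99.6 CPM labelled cko against 70.4. Of the Ms4a6c UMIs labelled cko, 1 cell held 44.4%. Ms4a4c was at 379 CPM against 289 labelled wt and at 257 against 50.7 labelled cko, and Ms4a6d at 273 against 306 and at 151 against 56.1, where 1 cell held 38.2% of the Ms4a6d UMIs labelled cko. In the C1q-low cells with no Csf1r UMI, a subset set after the values were seen, Ms4a6c was at 52.3 CPM (31.5 to 81.6) and 35.2 CPM (19.3 to 59.1), Ms4a7 at 2.75 and 17.6 CPM, Ms4a6d at 55.0 and 55.4 CPM, Ms4a4c at 234 (187 to 289) and 219 CPM (175 to 270.2), and Ms4a6b at 561 (487 to 644) and 476 CPM (410.4 to 549).

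Ms4a4c, Ms4a6b, Ms4a6c and Ms4a6d were higher in classical monocytes than in C1q macrophages as a whole. Ms4a4c had the widest range. It was at 1986 CPM (1943 to 2031) in 460 classical monocytes labelled wt and at 1858 (1814 to 1903) in 422 labelled cko, at 2282 (2216 to 2349) and 2149.8 (2077 to 2225) in transitional cells, and at 755 (736 to 774) and 747 CPM (730.4 to 764) in C1q macrophages. Classical monocytes were 2.63-fold and 2.49-fold above C1q macrophages. Ms4a4c was the 1 of 7 members called higher in classical monocytes, a call made for 3.56% of 10026 genes. The other 3 had the same direction at 1.52-fold to 1.74-fold in both libraries, under the 2-fold line. The median log2 ratio over the 7 members was 0.80 and 0.79, against -0.11 and -0.11 for all genes.

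Ms4a6c and Ms4a6d spanned less between classes of the pool. Ms4a6c ran from 1125 CPM in C1q macrophages with both marker sets to 2122.5 in transitional cells labelled wt, a 1.89-fold range, and from 1197 to 2148.5 labelled cko, a 1.79-fold range. At least 93.0% of thinned cells in each of the 8 classes held an Ms4a6c UMI in either library. Ms4a6d ran from 879.6 to 2018 CPM labelled wt and from 782 to 2006 labelled cko, also highest in transitional cells. Ms4a6b ran from 681 to 1428 CPM and from 661 to 1459. For Ms4a6b the log2 ratio of transitional over classical cells was -0.01 (-0.07 to 0.06) and 0.10 (0.02 to 0.17), so that these neighbours in its order differed beyond counting error in the library labelled cko alone.

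Nonclassical monocytes, the patrolling monocytes that carry Ace and Cx3cr1, also held these members, at lower levels than classical monocytes. In 134 and 129 cells, Ms4a4c was at 1353 (1283 to 1427) and 1256 CPM (1184 to 1332), Ms4a6b at 1289.5 and 1277, Ms4a6c at 1754 and 1767, and Ms4a6d at 1154 and 1068, which is below the 1476 and 1556 CPM of C1q macrophages with neither marker set. Ms4a6b was 1.11-fold and 1.07-fold and Ms4a6c 1.14-fold and 1.197-fold below classical monocytes, while Ms4a4c was 1.47-fold and 1.48-fold and Ms4a6d 1.45-fold and 1.51-fold below. Ms4a7 was lower in nonclassical cells, 43.2 CPM (31.4 to 58.0) and 42.3 (29.9 to 58.1) against 128 (117 to 139) and 91.2 (81.5 to 102) in classical monocytes. It was the 1 of 7 members called lower in nonclassical cells, a call made for 1.63% of 8140 genes, and 0 were called higher (0.860% of genes). The call was lost, at 0 members, with a Ly6c2 cut of 5 per 10000 and with cells of at least 5000 UMIs alone.

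Ms4a7 was the macrophage member. It was at 966 CPM (945 to 988) in 569 C1q macrophages labelled wt and at 693 (677 to 709) in 780 labelled cko, 7.57-fold and 7.60-fold above classical monocytes. It was the 1 of 7 members called lower in classical monocytes than in C1q macrophages, a call made for 8.43% of genes. After thinning, 71.2% (67.3 to 74.9) and 62.9% (59.5 to 66.3) of C1q macrophages held an Ms4a7 UMI, against 19.1% (15.6 to 23.0) and 15.2% (11.9 to 18.9) of classical monocytes. Transitional cells lay between, at 455 (426 to 486) and 410.2 CPM (379 to 444).

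C1q macrophages differed among themselves in Ms4a7. They were divided by Vcam1, Ccl8 and Folr2, a set seen in resident-like macrophages, and by Cd300e, Clec4b1 and Pparg. The cuts were on raw UMIs, and the classes also differed in depth. Median depth was 12845 and 12056 UMIs with the first set alone and 11856 and 11073 with the second alone. It was 19468 and 17602 with both and 9050 and 8522 with neither, and the part of depth was not tested. Cells with the first set alone held 1259 CPM (1193 to 1328) of Ms4a7 in 73 cells labelled wt and 1160 (1099 to 1223) in 82 labelled cko. Cells with the second set alone held 672 (631 to 716) in 109 cells and 499 (471 to 529) in 200. Cells with both held 1258 (1222 to 1295) in 182 and 837 (811 to 863) in 258, and cells with neither 490.2 (460.1 to 522) in 205 and 338 (314 to 363) in 240. The first set alone was 1.87-fold and 2.32-fold above the second set alone, past 2-fold in 1 library only, and 0 of 7 members were called in either direction in this contrast (lower in the second set for 1.25% of 7332 genes, higher for 1.15%).

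**Figure D3:**
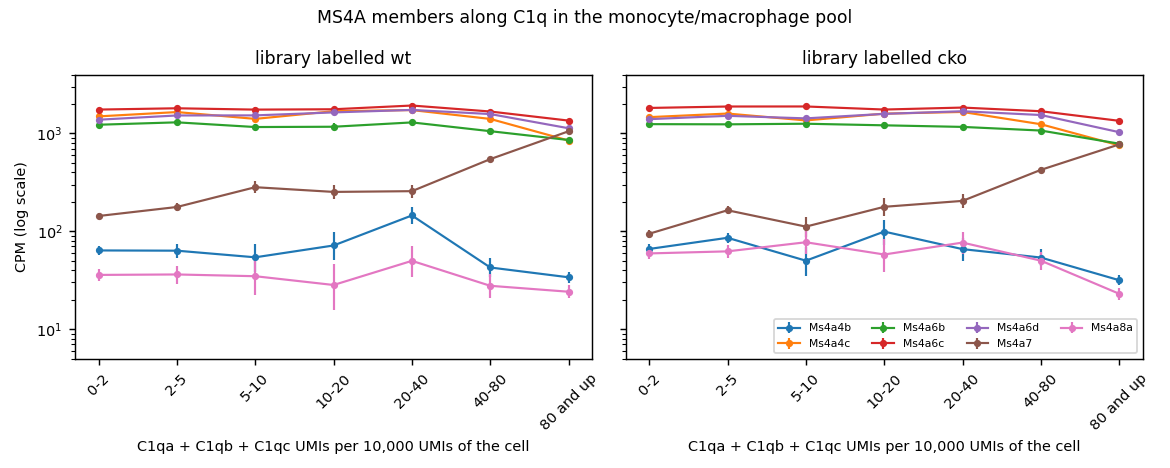
Level (CPM, log axis) of each member in cells of the monocyte/macrophage pool binned by their summed C1qa, C1qb and C1qc UMIs per 10000 UMIs, 1 panel per library, with 95% counting intervals. Ms4a7 climbs from 143 to 1053 CPM in the library labelled wt and from 94.5 to 773 CPM in the library labelled cko, while the other members are lower in the top bin than in the bottom bin.

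Along C1q in single cells, Ms4a7 was at 143 CPM in the 677 cells labelled wt with a C1q sum under 2 per 10000 UMIs and at 1053 in the 470 cells at 80 and up. The corresponding levels labelled cko were 94.5 CPM in 578 cells and 773 in 609. Most of the range lay above 40 per 10000: the bin from 20 to 40 was still at 257 and 205 CPM. The log2 ratio of the top over the bottom bin was 2.88 (2.77 to 2.98) and 3.03 (2.89 to 3.17). Ms4a4c had a log2 ratio of -0.82 and -0.96, Ms4a6b of -0.52 and -0.66, Ms4a6c of -0.37 and -0.44, and Ms4a6d of -0.29 and -0.44. These ratios do not describe a steady fall. In the bin from 20 to 40 Ms4a6d was at 1740 and 1687 CPM, above 1382 and 1399 in the bottom bin. Ms4a4c was at 1734 and 1659 there, above 1494 and 1468. Ms4a6c was at 1929 and 1839 against 1754 and 1822, and Ms4a6b at 1297 and 1167 against 1227.5 and 1245. Cells of the top bin had median depths of 14080 and 12807 UMIs against 7816 and 7460 in the bottom bin, and the part of depth was not tested.

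The monocyte members also moved with interferon-induced genes. Cells were binned by the summed UMIs of Ifit1, Ifit2, Ifit3, Isg15, Rsad2, Oasl1 and Cmpk2, genes induced by type I interferon. In classical monocytes labelled wt Ms4a4c was at 1311 CPM (1258 to 1367) in the 203 cells under 2 per 10000 and then at 1747, 2102, 2652 and 3491 CPM (3349.8 to 3637), the last in the 74 cells at 20 and up. In the library labelled cko it was at 1278 CPM (1225.5 to 1331) in 211 cells and then at 1609.9, 1994, 2619.7 and 3967 CPM (3776 to 4166) in 46. Each bin was above the one before it in both libraries. In C1q macrophages Ms4a4c was at 472 CPM (453 to 491) in the bottom bin and at 2244 (2115 to 2379) in the top bin labelled wt, and at 516 (499 to 533) and 2088 (1976 to 2204) labelled cko, with 1 inner bin labelled wt below its neighbour (1399 then 1204 CPM).

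The interferon log2 ratio, top over bottom bin, was larger for Ms4a4c than for the other 3 monocyte members in both classes and both libraries. In classical monocytes it was 1.41 (1.33 to 1.497) and 1.63 (1.54 to 1.73) for Ms4a4c, 1.00 (0.91 to 1.09) and 1.22 (1.12 to 1.33) for Ms4a6d, 0.72 (0.61 to 0.82) and 0.85 (0.74 to 0.97) for Ms4a6b, and 0.60 (0.51 to 0.69) and 0.73 (0.63 to 0.82) for Ms4a6c. In C1q macrophages it was 2.25 (2.15 to 2.35) and 2.02 (1.92 to 2.11) for Ms4a4c and between 0.67 and 0.83 for the other 3. For Ms4a7 it was 0.83 (0.46 to 1.204) and 1.56 (1.12 to 1.99) in classical monocytes, where its level is low, and 0.21 (0.08 to 0.34) and -0.07 (-0.23 to 0.07) in C1q macrophages, and for Ms4a8a in classical monocytes 0.38 (-0.29 to 1.03) and -0.44 (-1.12 to 0.18). Over the whole pool, Ms4a4c was at 738 and 745 CPM in cells with Ly6c2 under 1 per 10000 and at 2640 and 2402 CPM at 20 and up.

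**Figure D4:**
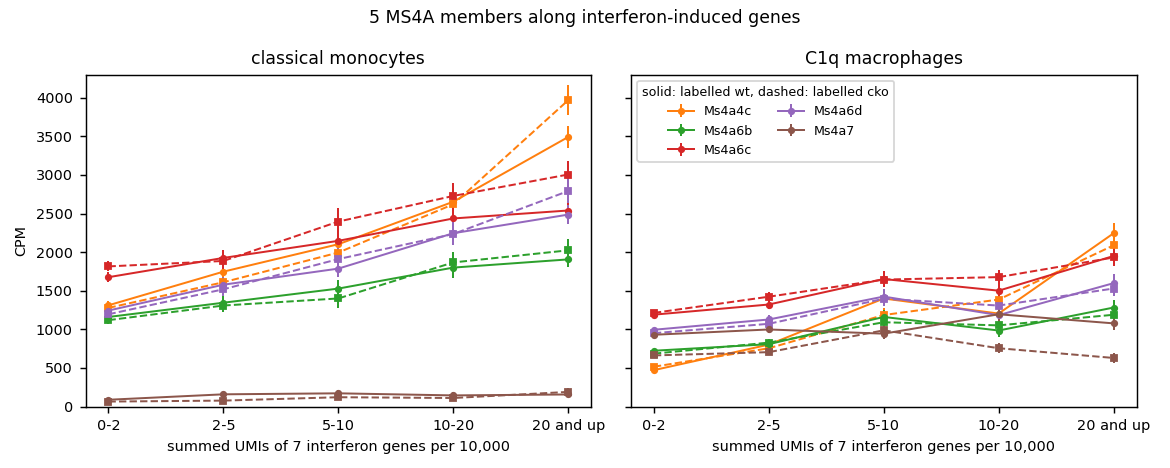
Level (CPM) of 5 members in classical monocytes and C1q macrophages binned by the summed UMIs of 7 interferon-induced genes per 10000 UMIs, with solid lines for the library labelled wt, dashed lines for the library labelled cko and bars for 95% counting intervals. Ms4a4c climbs most, from 1311 to 3491 CPM and from 1278 to 3967 CPM in classical monocytes, and Ms4a7 in C1q macrophages shows no common direction in both libraries.

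UMIs listed to Ms4a4b in the monocyte/macrophage pool were few beside those listed to its tandem copy in each class. Their ratio to the Ms4a4c UMIs was 3.05% to 5.79% over the 8 classes labelled wt and 3.04% to 4.97% labelled cko, while the Ms4a4c level spanned 4.64-fold and 4.01-fold. Ms4a4b also had the interferon direction of Ms4a4c, from 49.4 to 152 CPM and from 62.7 to 185 CPM between the bottom and top bin of classical monocytes. In C1q macrophages the ratio was not steady along the interferon bins: it went from 7.96% in the bottom bin to 1.88% in the bin from 10 to 20 and 3.63% in the top bin labelled wt, and from 4.91% in the bottom to 2.13% in the top bin labelled cko. The Cd3 UMIs of the pool, taken with Ms4a4b in the ratio found in T and NK cells, would bring 13.9 and 10.7 CPM. The pool held 3.82 and 4.94 times that. By class the multiple ran from 1.28 in C1q macrophages with both marker sets to 8.13 in nonclassical monocytes labelled wt. Labelled cko it ran from 2.58 with both sets to 8.24 in classical monocytes. Of the windows of 50 bases in the last 500 of the Ms4a4c transcript, 11.8% also occur in a transcript of Ms4a4b, so part of a 3′ read set could not be placed on 1 gene. Whether these UMIs are Ms4a4b molecules or reads of Ms4a4c was not tested. Of the Ms4a6c windows, 10.4% occur in Ms4a6b, and no other pair shared a window.

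Ms4a8a was read at low levels, mostly in the monocyte/macrophage pool. It was at 31.0 CPM (28.6 to 33.6) and 44.4 CPM (41.5 to 47.3) in the monocyte/macrophage pool and had 1 UMI in 208 T and NK cells labelled wt and 2 UMIs in 231 labelled cko. Classical monocytes held 38.5 (32.7 to 45.2) and 77.8 CPM (68.9 to 87.5), and C1q macrophages 21.6 (18.5 to 25.0) and 26.3 CPM (23.3 to 29.6). After thinning, 9.26% (7.96 to 10.7) and 12.4% (10.97 to 13.9) of the pool held an Ms4a8a UMI.

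Neutrophils and the plasmacytoid, XCR1+ and CCR7+ dendritic cells held less Ms4a4c, Ms4a6b, Ms4a6c and Ms4a6d than classical monocytes in both libraries. In 17 and 18 plasmacytoid dendritic cells Ms4a4b had 0 UMIs, which allows up to 31 and 29.7 CPM (3 counts), and Ms4a4c was at 62.1 and 59.5 CPM. Ms4a4c was at 263 (214.5 to 320.0) and 76.4 CPM (44.5 to 122) in 19 and 14 XCR1+ dendritic cells and at 367 (257 to 508) and 227 CPM (177 to 287) in 14 and 29 CCR7+ dendritic cells, and the C1q that was carried over was not subtracted. The CD209a+ gate held only 3 and 2 cells, with Ms4a6c at 781 (500.2 to 1162) and 1683 CPM (1159 to 2364) and Ms4a4c at 553 (322 to 885) and 1173 CPM (744 to 1760.2). Among Csf1r+ cells low in both Ly6c2 and C1q, those with at least 2 UMIs of Mgl2, a lectin of some dendritic cells and macrophages, held less Ms4a6b: 416 CPM in 25 cells against 1100.4 in 444 without Mgl2 labelled wt, and 480.2 in 19 against 1165 in 448 labelled cko. Their log2 ratio was -1.40 (-1.67 to -1.15) and -1.28 (-1.59 to -0.98), in a subset chosen after the values were seen. The same cells were also lower in Ms4a6c (-0.87 and -0.89), Ms4a6d (-0.83 and -1.09) and Ms4a4c (-0.18 and -0.86). Ms4a7 had no common direction (0.17 and -0.42). Ms4a8a had only 2 and 1 UMIs in these cells, a log2 ratio of -2.46 (-5.52 to -0.58) and -3.41 (-8.72 to -0.91). Neutrophils held 756 (614 to 921) and 178 CPM (122 to 249.7) of Ms4a6c in 25 and 46 cells, with C1qa at 563 CPM labelled wt and 59.3 CPM labelled cko.

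Between the 2 libraries, a difference of at least 1.5-fold in either direction in the monocyte/macrophage pool was found for 7.09% of 11509 genes and for 0 of the 7 members. The log2 ratio, labelled cko over labelled wt, was -0.29 (-0.34 to -0.25) for Ms4a7, -0.14 (-0.16 to -0.11) for Ms4a4c, -0.08 (-0.11 to -0.05) for Ms4a6b, -0.07 (-0.10 to -0.05) for Ms4a6d, -0.01 (-0.13 to 0.12) for Ms4a4b, 0.00 (-0.02 to 0.02) for Ms4a6c and 0.52 (0.37 to 0.67) for Ms4a8a. Their median was -0.07, and that of all genes was 0.04. C1q macrophages were 569 of the 1826 cells of the pool labelled wt and 780 of 1952 labelled cko, and with the classes weighted alike in both libraries the Ms4a4c value turned to 0.012, although within bins of C1q level Ms4a4c was lower labelled cko in 7 of 7, for example at 847 and 755 CPM in the top bin.

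Ms4a7 was lower in the library labelled cko in all 8 classes of the pool. It was the 1 of 7 members with that pattern, which 1.5% of 6079 genes showed, and 0 members were higher in all 8 (3.54% of genes). The interval lay below 0 in 7 of 8 classes. The log2 ratio was -0.59 (-0.65 to -0.53) in C1q macrophages with both marker sets, -0.54 (-0.68 to -0.40) with neither, -0.43 (-0.55 to -0.31) with the second set alone and -0.12 (-0.23 to -0.01) with the first set alone. It was -0.49 (-0.69 to -0.28) in classical monocytes, -0.47 (-0.62 to -0.32) in Ly6c2-low C1q-low cells, -0.15 (-0.30 to -0.0012) in transitional cells and -0.03 (-0.69 to 0.63) in nonclassical monocytes. Ms4a7 was also lower labelled cko in 7 of the 7 bins of C1q level, as was Ms4a4c. Along the other axes Ms4a7 was higher labelled cko in the Ly6c2 bin from 3 to 5 (243 and 302 CPM) and in the interferon bin from 5 to 10 (516 and 578 CPM). With the classes weighted alike the pool value of Ms4a7 was -0.43.

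The ratios of Ms4a6c over the 8 classes ran from -0.08 to 0.18, and those of Ms4a8a from -0.08 to 1.01. Classical monocytes held 38.5 and 77.8 CPM of Ms4a8a, a log2 ratio of 1.01 (0.72 to 1.31), and the share of thinned cells with a UMI was 11.3% (8.56 to 14.6) labelled wt and 18.2% (14.7 to 22.3) labelled cko. The Ms4a8a ratio was 0.60 (0.19 to 1.01) in transitional cells, 0.61 (0.28 to 0.93) in Ly6c2-low C1q-low cells, 0.65 (0.23 to 1.08) in C1q macrophages with neither set and -0.08 (-0.57 to 0.42) with both. With 1 pool of mice per library, a genotype difference and a difference between pools or libraries cannot be told apart.

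**Figure D5:**
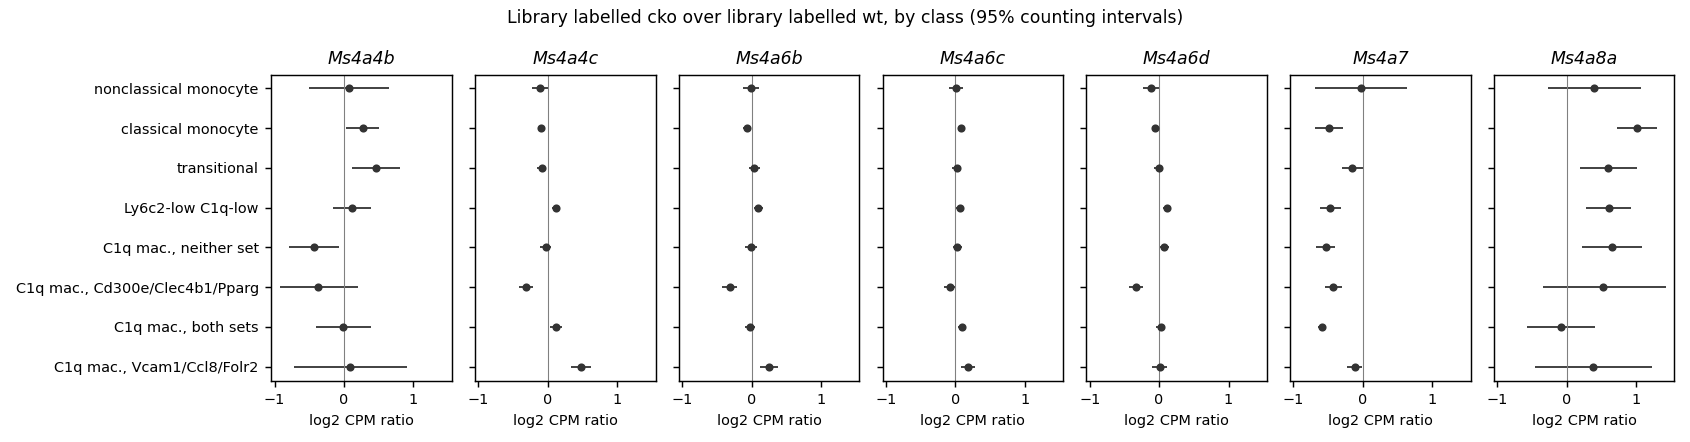
Log2 ratio of CPM, library labelled cko over library labelled wt, for each member in the 8 classes of the monocyte/macrophage pool, with 95% counting intervals and a grey line at 0. Ms4a7 lies below 0 in 8 of 8 classes, Ms4a8a reaches 1.01 in classical monocytes, and the ratios of Ms4a6c stay between -0.08 and 0.18.

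In T and NK cells, 17.7% of 8848 genes and 2 of the 6 members tested differed by at least 1.5-fold. These were Ms4a6c at 135 and 63.6 CPM (log2 ratio -1.09, -1.41 to -0.77) and Ms4a7 at 47.2 and 12.6 CPM (-1.90, -2.60 to -1.25). Of the Ms4a7 UMIs labelled wt, 33 of 80 came from 1 cell, and without the top cell of each library Ms4a7 was at 28.0 and 11.8 CPM, a log2 ratio of -1.25. C1qa in the same pool was at 151 CPM labelled wt and 68.4 CPM labelled cko, and in the ratios of the monocyte/macrophage pool its C1q would bring 125 and 47.0 CPM of Ms4a6c and 41.6 and 12.8 CPM of Ms4a7. The levels read were 1.08 and 1.35 times these for Ms4a6c and 1.13 and 0.988 times for Ms4a7. Ms4a4b, the member these cells express most clearly, had a log2 ratio of -0.04 (-0.11 to 0.03), and Ms4a6b of -0.07 (-0.21 to 0.06). Ms4a4c had -0.37 (-0.59 to -0.16), which turned to 0.017 with the classes weighted alike and was -0.11 with no Csf1r UMI allowed, and Ms4a6d had -0.52 (-0.82 to -0.21).

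The likeness of patterns was measured by Pearson's r of log2(CPM + 10) over the 12 classes with at least 20 cells in each library, which share libraries, for 9120 genes outside the family. The genes most like Ms4a4b were Rhof (r = 0.99), Il12rb2 (0.99) and Unc119b (0.99). For Ms4a4c they were Parp12 (0.98), Ifi44 (0.97) and Stat2 (0.97), for Ms4a6c Tifa (1.00), Ctss (0.99) and Asah1 (0.99), and for Ms4a6d Capza2 (0.99), Pgap2 (0.99) and Fcgr1 (0.99). For Ms4a7 they included Rab3il1 (0.99) and Uap1l1 (0.98). For Ms4a8a they were Ift172 (0.98), Stx3 (0.97) and Serpinb8 (0.97), and for Ms4a6b Ggh (0.97), Cnn3 (0.95) and Vcpip1 (0.95). Among the members, Ms4a6c and Ms4a6d were most alike (0.99), and Ms4a4b and Ms4a6c most opposed (-0.85).

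Of 14 other family genes in the table, namely the other Ms4a symbols with Tmem176a and Tmem176b, 6 had at least 50 UMIs over both libraries and 5 had none. Ms4a1 was read in B cells at 478 and 176 CPM (5 and 6 cells) and had 0 UMIs in the monocyte/macrophage pool labelled wt. Tmem176b was at 265 and 319 CPM in the pool, a log2 ratio of 0.27 (0.21 to 0.32), and Tmem176a at 134 and 164 CPM, a ratio of 0.29 (0.22 to 0.37). Ms4a4a was at 17 and 17.6 CPM in the pool and 2.36 and 0.971 CPM in T and NK cells. Ms4a14 was at 4.61 and 3.90 CPM in C1q macrophages and 0.252 and 0.279 CPM in classical monocytes. Ms4a3 had 24 UMIs in 13 cells labelled wt, and 40 of its 50 UMIs labelled cko came from 1 cell of the NK gate.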

How the data were processed

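Per the labels and the submitters' processing notes, 10x 3′ v2 libraries were processed with Cell Ranger and Seurat on mm10, versions not given in the sources used here. The authors deposited raw UMI counts per gene and called cell, unnormalized. Kept cells had 200 genes or more and no more than 10% mitochondrial UMIs (4 and 14 removed). Scrublet (scanpy 1.11.5) marked only 2 and 5 doublets, so the 48 and 59 highest scores were removed at 0.8% per 1000 cells. Gates are as described, with C1q-high at 10 and Ly6c2-high at 3 per 10000 UMIs and up to 2 Csf1r UMIs in lymphoid gates. UMIs were summed per class and library and given as CPM with exact Poisson intervals. Ratios carry exact conditional binomial intervals, for genes with at least 20 UMIs. Shares used cells thinned to 3000 UMIs. Calls and intervals were checked on simulated Poisson counts, the model that the intervals assume, with changes well past 2-fold. Spread between cells or mice and changes near 2-fold were not checked. Sequences came from RefSeq and GENCODE M21, aligned with Biopython 1.88. The members, gates and lists were chosen with earlier results of these data known. All members were named in every class, other family genes from 50 UMIs, and the 3 most alike genes per member among genes with 200 UMIs, except for items not reported here. Depth ranged from 3184 to 159109 UMIs per cell.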

Additional observations from a re-analysis of the deposited data

Results flagged for a closer look

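Between classes, the counting intervals of the log2 ratio, labelled cko over labelled wt, lay on opposite sides of 0 for 5 members. The difference between classes was not tested, since each library is 1 pool. Ms4a4b had 0.46 in transitional cells and -0.43 in C1q macrophages with neither marker set. Ms4a4c had 0.52 in CD8 T cells and -1.77 in neutrophils. Ms4a6b and Ms4a6c had 0.25 and 0.18 in C1q macrophages with Vcam1, Ccl8 or Folr2 alone, and -1.87 and -2.09 in neutrophils. Ms4a6d had 0.11 in Ly6c2-low C1q-low cells and -1.50 in neutrophils. The 25 neutrophils labelled wt carried 563 CPM of C1qa and the 46 labelled cko 59.3 CPM. In the ratios of the monocyte/macrophage pool, this C1q would bring 374 CPM of Ms4a4c labelled wt, where 439.6 were read, and 28.0 labelled cko, where 129 were read. Labelled wt the same C1q would bring 396 CPM of Ms4a6d, 473 of Ms4a6c, 317 of Ms4a6b and 158 of Ms4a7. The levels read were 517, 756, 609 and 69.4 CPM. Labelled cko it would bring 31.0 CPM of Ms4a6d, 38.9 of Ms4a6c, 24.7 of Ms4a6b and 10.6 of Ms4a7. There 183, 178, 167 and 32.3 CPM were read. In the 22 C1q-low neutrophils labelled wt, a subset chosen after the values were seen, Ms4a6c was at 586 CPM (446 to 756), and the 46 labelled cko held 178 CPM (122 to 249.7).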

How the results depend on the processing

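Of 448 class log2 ratios recomputed under other gates, doublet handling or depth, 425 stayed within the counting interval of the value given, as did 66 of 80 library log2 ratios, and 78 of 80 counts of members called were unchanged within 1.5-fold. The count of members lower in nonclassical than in classical monocytes was 0 with a Ly6c2 cut of 5 and 0 with cells of at least 5000 UMIs. In the monocyte/macrophage pool, centring on the median of all genes, which lies at 0.04, gave -0.18 for Ms4a4c, -0.12 for Ms4a6b, -0.037 for Ms4a6c and -0.11 for Ms4a6d. Weighting the classes alike, chosen after seeing the data, gave 0.012 for Ms4a4c, -0.012 for Ms4a6b, 0.055 for Ms4a6c, -0.013 for Ms4a6d and -0.43 for Ms4a7. In the T and NK pool it gave 0.017 for Ms4a4c, gates with no Csf1r UMI gave 0.054 for Ms4a4b, -0.11 for Ms4a4c and 0.13 for Ms4a6b, and cells of at least 5000 UMIs gave 0.10 for Ms4a4b. Apart from the weighting, whose construction removes class shares, the cause was not tested. Shares of cells with a UMI follow depth: thinned to 1000 UMIs, 44.6% and 34.4% of C1q macrophages held Ms4a7, and unthinned 84.5% and 82.1%. No paired analysis was possible because each genotype has 1 library.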
